A study of Mus musculus with 8 samples.

Results

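The genes of the proteasome, the protease that degrades ubiquitin-tagged proteins, were taken from the count table by symbol: every gene whose symbol starts with Psma, Psmb, Psmc, Psmd, Psme, Psmf or Psmg followed by a number, pseudogenes left out. This gave 49 of 23478 genes, and all 49 passed the filter on low counts. Of the 49, Psmc3ip carries the name only: it is a factor of meiotic recombination and no proteasome subunit. RNA had been sequenced from 8 mouse libraries, in 4 groups of 2 (written with their replicate number, as in TUBO 1). DCC control and DCC IFN-gamma are disseminated cancer cells (DCC) recovered from marrow of mice whose breast cancer had spread spontaneously, left untreated or treated with interferon-gamma, a cytokine of Th1 cells. The early lesion group is untreated primary cancer cells of an early mammary tumour whose title carries neuT, the name of an activated form of the rat Erbb2 gene, and TUBO is an untreated breast cancer line. The growth protocol names standard cell culture for all of them. The labels give all 4 groups the genotype WT, and the strain, age, number of animals, promoter of the oncogene, and dose and duration of interferon-gamma are not given in the sources used here.

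Gene counts per library ranged from 15432210 to 30168475, and 3 counts, the limit that a count of 0 allows, stood for 0.0953 to 0.183 counts scaled to a common library size (CPM). Reads outside annotated genes were most frequent in DCC control 1 (49.2%) and early lesion 2 (44.1%), against 18.3% to 31.0% in the other 6 libraries. The labels call the replicates biological without naming separate animals or cultures, so p-values measure the spread between these libraries, which may be technical. The labelled cell type did not match its markers in the cultured DCC. The summed level of 12 epithelial markers was 7.37 and 4.32 CPM in DCC control and 0.367 and 0.501 CPM in DCC IFN-gamma, against 3754 to 7036 CPM in early lesion and TUBO. Epcam, the epithelial adhesion molecule, was at 0 in 3 of the 4 DCC libraries. The summed level of 12 stromal and osteoblast markers was 9329 and 10581 CPM in DCC control, 834 and 1374 CPM in DCC IFN-gamma, and at most 141 CPM in the other 4 libraries. Most of the DCC control sum was Col1a1 (3900 and 4274 CPM) and Col3a1 (2969 and 3629 CPM). By the edgeR test described below, 6 of 11 tested markers were lower after treatment, 1 was higher and 4 were not called. Of all genes tested, 8.83% were lower and 12.6% higher. Pdgfra rose from 21.9 and 28.1 to 64.5 and 115 CPM. The groups are therefore called by their labels, DCC, without a statement on their lineage.

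The 20S core of the proteasome is a barrel of stacked rings. The outer rings hold the alpha subunits (Psma genes) and the inner rings the beta subunits (Psmb genes), of which β1 (Psmb6), β2 (Psmb7) and β5 (Psmb5) carry the proteolytic sites. Interferon-gamma is known to induce the alternative subunits β1i (Psmb9), β2i (Psmb10) and β5i (Psmb8), which replace them in newly built particles and form the immunoproteasome, a source of peptides for MHC class I. A 19S cap of ATPases (Psmc genes) and other subunits (Psmd genes) unfolds substrates, and the PA28 ring (Psme1 and Psme2) is another activator.

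Promoter sequences are shown for the interferon-responsive Psmb8, Psmb9 and Psme1 and, for contrast, Psmb5, the constitutive partner of Psmb8, because the results turn on these genes. They run from 250 bases before to 30 bases after the gene start, 5′ to 3′ on the gene's strand, from RefSeq on GRCm38.p6. The RefSeq starts lie inside the wider GENCODE spans of the same genes printed with their values, so positions are counted from the RefSeq start. The windows lie at chr17:34197945-34198224 (plus strand, Psmb8), chr17:34187301-34187580 (minus, Psmb9), chr14:55578244-55578523 (plus, Psme1) and chr14:54617966-54618245 (minus, Psmb5). Capitals mark matches to the interferon-stimulated response element (ISRE, searched as GAAA, any 2 bases, GAAA) or the gamma-activated site (GAS, searched as TTCNNNGAA), on either strand.
Psmb8: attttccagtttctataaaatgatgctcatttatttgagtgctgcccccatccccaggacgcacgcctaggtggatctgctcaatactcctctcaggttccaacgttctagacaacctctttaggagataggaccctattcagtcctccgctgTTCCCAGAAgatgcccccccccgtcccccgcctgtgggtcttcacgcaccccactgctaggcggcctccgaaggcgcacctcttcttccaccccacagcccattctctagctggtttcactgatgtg
Psmb9: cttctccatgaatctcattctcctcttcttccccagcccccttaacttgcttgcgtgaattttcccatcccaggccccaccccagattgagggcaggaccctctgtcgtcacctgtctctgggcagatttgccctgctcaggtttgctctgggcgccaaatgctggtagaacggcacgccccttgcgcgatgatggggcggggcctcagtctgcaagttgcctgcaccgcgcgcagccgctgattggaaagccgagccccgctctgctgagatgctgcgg
Psme1: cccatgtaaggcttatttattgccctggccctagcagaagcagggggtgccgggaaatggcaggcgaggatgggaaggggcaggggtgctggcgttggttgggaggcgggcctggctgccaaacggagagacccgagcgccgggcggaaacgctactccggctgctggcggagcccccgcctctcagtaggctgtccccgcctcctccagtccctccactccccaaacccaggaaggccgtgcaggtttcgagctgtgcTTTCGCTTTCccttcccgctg
Psmb5: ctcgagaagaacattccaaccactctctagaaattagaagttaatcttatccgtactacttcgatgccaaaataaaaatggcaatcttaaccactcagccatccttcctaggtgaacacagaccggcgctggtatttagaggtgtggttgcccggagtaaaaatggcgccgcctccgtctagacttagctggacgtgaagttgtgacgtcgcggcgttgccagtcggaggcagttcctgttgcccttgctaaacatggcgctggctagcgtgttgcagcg
Psmb8 held a GAS match (TTCCCAGAA) from 97 to 89 bases before its RefSeq start, and Psme1 an ISRE match on the opposite strand (TTTCGCTTTC) 9 to 18 bases after its own. Psmb9 and Psmb5 held neither in this window. Nor did Psmb10 and Psme2, which rose with interferon-gamma too but are not printed, over the 300 bases searched. Of the 49 genes, 41 had a promoter in the table, searched over 300 bases (250 before and 50 after the start). Psmc2, Psma6 and Psme2 had more than 1 promoter, and a match in any of them counted for the gene. The shares of all promoters count each promoter, so they differ in unit from those of the genes. An ISRE match stood in 5 of the 41 (12.2%; Psmb3, Psmd4, Psmd9, Psme1 and Psmg4), against 3.44% of all 32851 promoters. A GAS match stood in 3 (7.32%; Psmb8, Psmd2 and Psmg1), against 8.3% of all. The CCAAT box was found in 15 (36.6% against 37.4%) and the antioxidant element, searched as TGANNNNGC, in 24 (58.5% against 41.3%), also on both strands. In the 4 printed windows no ISRE match overlapped a GAS match. A match describes letters and is no evidence of binding.

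The design names the Th1 response, and interferon-gamma, its cytokine, was added to cultured DCC; the first comparison asked which proteasome genes then changed. All 3 immunosubunits and both PA28 genes rose strongly, by 7.55-fold to 38.2-fold. Most subunits of the standard 20S and 19S particles had small positive differences, and the 3 constitutive catalytic subunits were not called. By the quasi-likelihood test of edgeR, adjusted after Benjamini and Hochberg over 17069 genes, 20 of the 49 were called higher (adjusted p under 0.05) (40.8%, against 12.6% of all genes tested), 1 lower (2.04%, against 8.83%) and 28 were not called; 21.4% of all genes were called in either direction. The median log2 fold change of the 49 was 0.47, with 43 above 0, beside -0.20 over all genes. With upper quartile factors the median of all genes moved to -0.40, that of the 49 to 0.27 with 35 above 0, and 12 were called higher. The share of calls on the higher side went from 58.8% to 40.7% over all genes and from 95.2% to 92.3% among the 49.

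**Figure D1:**
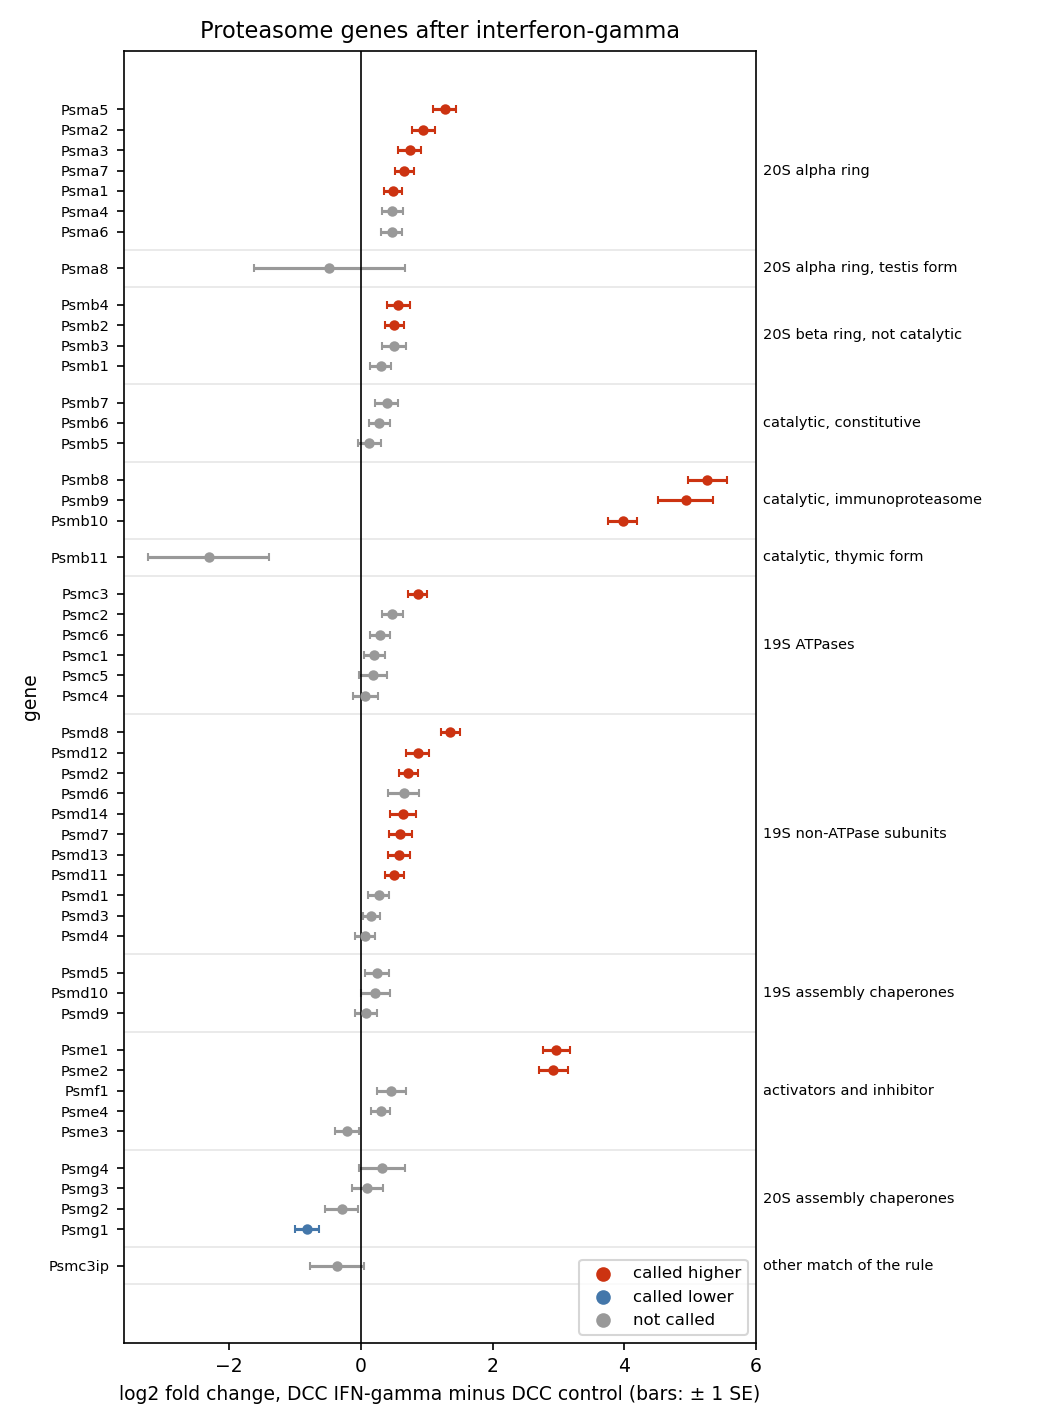
Log2 fold change of the 49 genes between DCC IFN-gamma and DCC control (x axis, edgeR estimate ± 1 SE, 2 libraries a group), with genes on the y axis grouped by class and coloured by call. The 3 immunosubunits (3.98 to 5.26) and Psme1 and Psme2 (2.97 and 2.92) stand apart from the 31 standard 20S and 19S subunits, which lie between 0.06 and 1.36.

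A fit with fewer libraries has fewer residual degrees of freedom than the 4 of the full fit. Without DCC control 1 and early lesion 2, the libraries richest in reads outside genes, neither group keeps a replicate. The part of either in lost calls was not tested. The count of 20 depended on the libraries in the fit, among them those of the groups outside this comparison. It was 7 without both libraries richest in reads outside genes, and those 7, Psmb8, Psmb9, Psmb10, Psme1, Psme2, Psma5 and Psmd8, were called under all 16 alternatives run. Of 16 markers of macrophages and monocytes, 12 were called higher in the same comparison (median log2 fold change 3.16). Their summed level went from 138 and 136 CPM to 1712 and 1239 CPM. All 16 had counts in both treated libraries, but Cd163 in DCC IFN-gamma 1 (0.0367 CPM) lay below the level of 3 counts (0.11 CPM). No marker of this list was called lower, though Mrc1 went from 8.77 and 7.68 to 5.39 and 4.96 CPM. Ptprc, the CD45 gene that defines leukocytes, had 7.24 and 2.69 CPM in DCC control and 56.4 and 42.3 CPM in DCC IFN-gamma. Of 8 T, NK and B cell markers 2 passed the filter and neither was called, and their summed level was at most 2.8 CPM. The part of these markers in the proteasome results was not tested, and a change in the mix of cells and a change of RNA per cell cannot be told apart in such bulk libraries.

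Psmb8 (β5i; chromosome 17, 34197721 to 34201454, plus strand, GENCODE M21 on GRCm38) had 1.77 and 2.93 CPM untreated, from 29 and 74 counts, and 85.3 and 98.5 CPM after treatment. The groups were far apart and did not overlap, and the log2 fold change was 5.26 ± 0.30 (SE, n = 2 a group, edgeR adjusted p = 2.64e-06). Early lesion libraries were low as well, with 1.30 and 2.05 CPM, while TUBO held 47.6 and 56.6 CPM. Psmb9 (β1i; chromosome 17, 34181987 to 34187764, minus strand) rose from 1.83 and 4.67 to 83.6 and 120 CPM, and was low in early lesion (0.89 and 1.16 CPM) and TUBO (3 and 3.85 CPM). Both treated libraries lay above the other 6 (4.93 ± 0.42, adjusted p = 1.09e-04). Exons of Psmb9 overlap those of Tap1, a peptide transporter gene on the other strand, which had 275 and 302 CPM after treatment. Whether the counting used strand is not given in the sources used here, and without it reads in the shared stretch cannot be told apart. Psmb10 (β2i; chromosome 8, 105935735 to 105938444, minus strand) rose from 7.97 and 12 to 150 and 168 CPM, again without overlap (3.98 ± 0.22, adjusted p = 2.49e-06). It was the most abundant immunosubunit per kilobase of exon in all 8 libraries except TUBO, where Psmb8 was higher. Untreated, it had 8.39 and 7.81 CPM in early lesion and 14.9 and 16.2 CPM in TUBO.

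The constitutive partners moved little. Psmb5 (β5; chromosome 14, 54614119 to 54618022) had 38.7 and 44.3 CPM in DCC control and 51.2 and 39.4 CPM in DCC IFN-gamma, so the groups overlapped (log2 fold change 0.13 ± 0.18, adjusted p = 0.639 in edgeR). Psmb6 (β1; chromosome 11, 70525367 to 70527858) had 141 and 114 CPM before and 166 and 144 CPM after treatment (0.28 ± 0.16, adjusted p = 0.246). Psmb7 (β2; chromosome 2, 38588036 to 38644087) had 153 and 147 CPM before and 218 and 174 CPM after (0.39 ± 0.17, adjusted p = 0.131), and was called only without DCC IFN-gamma 2 (adjusted p = 0.022, within 0.022 to 0.455 over the alternatives). For Psmb6 and Psmb7 the lower treated library lay just above the higher control. At an unadjusted p under 0.05 only Psmb7 of these 3 passed (0.042), and DESeq2 called 0 of them. Exons of Psmb7 overlap those of Nek6 on the other strand. With upper quartile factors Psmb5 lay below 0 on the log2 scale, and Psmb6 and Psmb7 stayed above it.

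**Figure D2:**
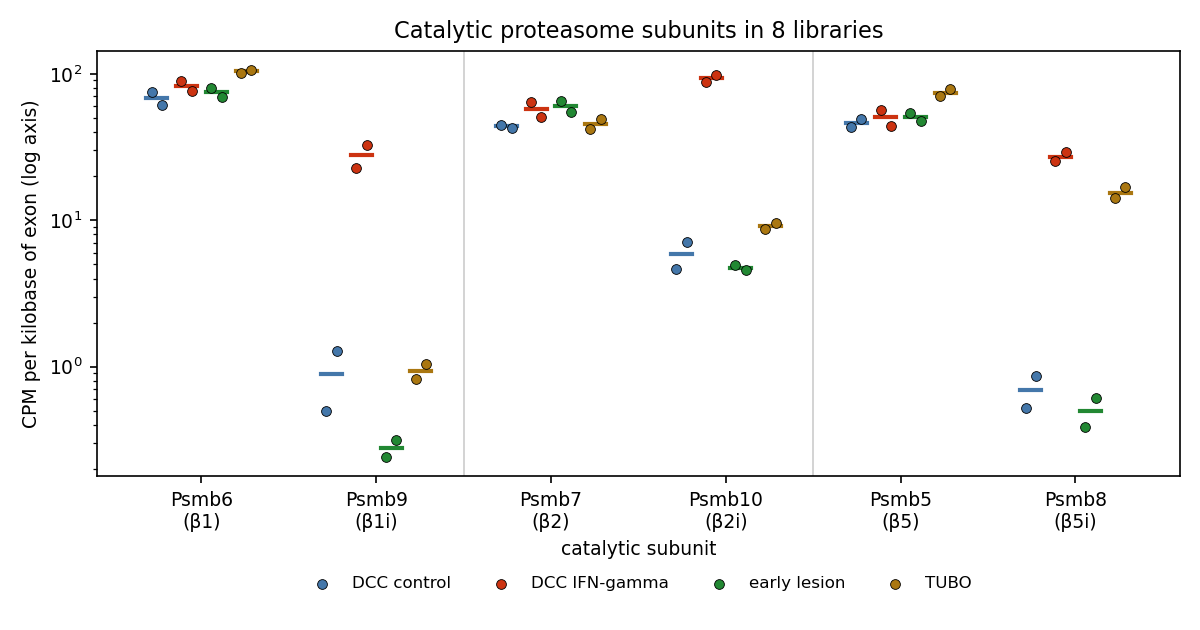
Levels of the 6 catalytic subunits in CPM per kilobase of exon (log axis); points are the 2 libraries of each group and bars their mean. Psmb6, Psmb7 and Psmb5 lie within 42.0 and 106 in all 8 libraries, whereas Psmb9 and Psmb8 range from 0.243 and 0.385 to 32.7 and 29.1.

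Within a library, the ratio of an immunosubunit to its partner does not depend on scaling between libraries. Divided by the length of the union of exons, the log2 ratio of Psmb8 to Psmb5 was -6.10 ± 0.38 (SD, n = 2) in untreated and -0.88 ± 0.41 in treated DCC, a difference of 5.22 or 37.2-fold. That of Psmb9 to Psmb6 went from -6.41 ± 1.18 to -1.59 ± 0.51, a difference of 4.81 or 28.1-fold. That of Psmb10 to Psmb7 went from -2.93 ± 0.46 to 0.71 ± 0.34, a difference of 3.64 or 12.5-fold. All 3 differences were larger than the spread between replicates, and in each pair both treated libraries lay above both controls. The exact 2-sided permutation p was 0.333 for each of the 3 pairs, the smallest that 2 libraries against 2 can give, and stays 0.333 after Benjamini-Hochberg adjustment over them.

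Expressed as a share of the RNA for each site, β5i rose from 1.2% and 1.73% to 30.7% and 39.9%, β1i from 0.656% and 2.05% to 20.5% and 29.9%, and β2i from 9.46% and 14.1% to 58.0% and 65.9%. Over the 3 sites together the immunosubunits made up 3.37% and 5.67% in untreated DCC and 39.4% and 48.3% in treated DCC. Early lesion had 2.71% and 3.11%, and TUBO 9.95% and 10.5%. The treated cells stood highest and all other libraries lower, with TUBO between. These shares depend on the length used, since the union of exons exceeds the principal transcript by unlike amounts (3421 and 1160 bases for Psmb7, 899 and 899 for Psmb5). With the length of the principal transcript, an alternative chosen after seeing the data, β2i reached 37.9% and 46.0% and β5i 47.9% and 58.0% in treated DCC. The order of the sites therefore turned with the length. Fold differences between groups in the pair ratios are the same for any length, while those in the shares are not.

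**Figure D3:**
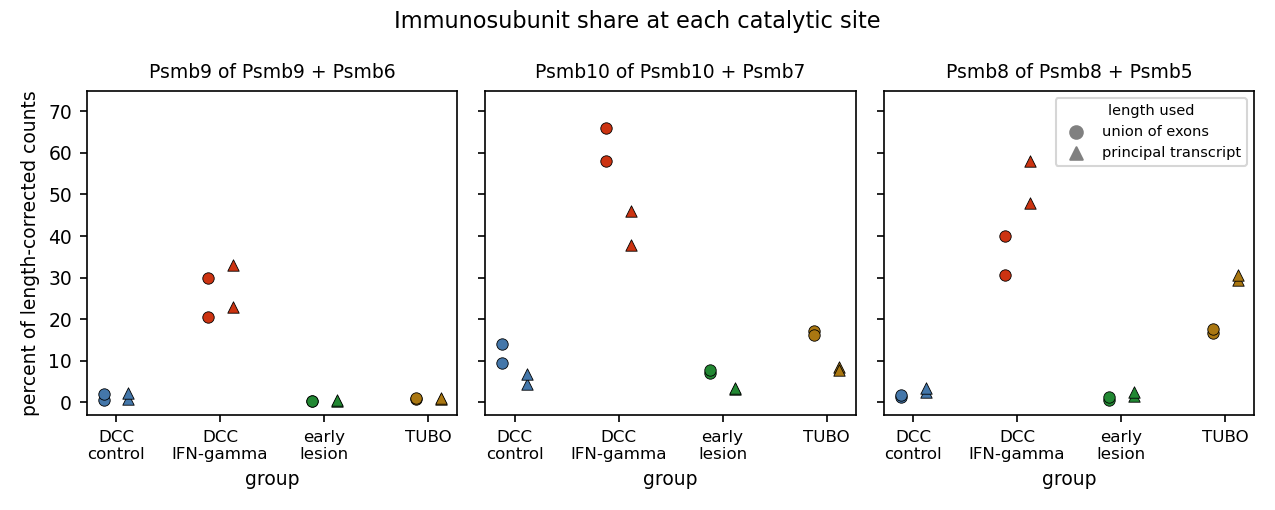
Percent of the length-corrected counts of each catalytic site that fell on the immunosubunit (y axis) in the 4 groups (x axis); each point is a library, circles use the union of exons and triangles the principal transcript. Treated DCC are highest at all 3 sites, and TUBO, with the union of exons, has 16.7% and 17.6% at the β5 site, 17.2% and 16.2% at the β2 site and 0.797% and 0.98% at the β1 site, above early lesion at each.

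Among the activators, Psme1 and Psme2, the subunits of the interferon-inducible PA28 ring, rose together. Psme1 (chromosome 14, 55578123 to 55581529) had 60.9 and 80.2 CPM in DCC control and 464 and 640 CPM in DCC IFN-gamma, against 95.2 and 88.3 CPM in early lesion and 108 and 99.0 CPM in TUBO. Its log2 fold change was 2.97 ± 0.21 (adjusted p = 1.05e-05 in edgeR). Psme2 (chromosome 14, 55587441 to 55591113) had 22.2 and 30 CPM before and 212 and 183 CPM after treatment, 29.2 CPM in both early lesion libraries, and 38.8 and 54.2 CPM in TUBO (2.92 ± 0.22, adjusted p = 1.54e-05). For both genes the treated libraries were several times above the other 6. Exons of Psme1 overlap those of Emc9 on the other strand. Psme2b, a near-identical copy, is no gene of the table, so reads of Psme2 are uncertain between them. The other 3 genes of the class were not called: Psme3 (PA28 gamma, the nuclear activator; -0.21 ± 0.18), Psme4 (PA200, another nuclear activator; 0.30 ± 0.14) and Psmf1 (PI31, named as an inhibitor; 0.46 ± 0.22). Over the settings run Psme3 lay between -0.43 and 0.03, while Psme4 and Psmf1 stayed above 0.

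The fitted differences of the standard subunits were positive and small. Of the 31 subunits of the 20S core and 19S cap with a Psm symbol, other than the immunosubunits and the tissue-restricted forms, 15 were called higher, none lower and 16 were not called, with a median log2 fold change of 0.50 and all 31 above 0. Over all genes tested, 12.6% were called higher and 8.83% lower, with a median of -0.20. In edgeR 0 of the 31 were lower at an unadjusted p under 0.05 too, and DESeq2 called 18 higher and 0 lower. The count of 15 was 7 without DCC control 1 and also 7 without DCC control 2, and 9 without early lesion 1 or early lesion 2. When DCC control 1 and early lesion 2 were both omitted, 2 calls were kept, Psma5 and Psmd8. With upper quartile factors 7 were called and 25 lay above 0. In the 20S alpha ring, the gate of the core, 5 of 7 were called (median 0.66, from 0.47 to 1.27), of the 4 beta subunits without a proteolytic site 2 (median 0.51), of the 6 ATPases of the cap 1 (median 0.24) and of the 11 other cap subunits 7 (median 0.60). The ATPase count was close to the share of all genes. The alpha ring count was 3 without DCC control 1 and 2 without DCC control 2. The count of noncatalytic beta subunits was at most 1 without any 1 of the libraries other than DCC IFN-gamma 2. The count of the 11 cap subunits was 3 without DCC control 1 or DCC IFN-gamma 1 and 4 without DCC control 2 or any 1 early lesion or TUBO library, and that of the ATPases was 3 without DCC IFN-gamma 2.

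Psmd8, a lid subunit of the cap, had 107 and 113 CPM in DCC control and 267 and 298 CPM in DCC IFN-gamma, and 87.8 to 107 CPM in the other 4 libraries (1.36 ± 0.15, adjusted p = 2.05e-04 in edgeR). Psma5, the α5 subunit, had 40.6 and 47.2 CPM before and 118 and 93.2 CPM after treatment (1.27 ± 0.18, adjusted p = 7.07e-04). In both genes the treated libraries were above all others. Psma2 (α2) had 209 and 235 CPM before and 462 and 393 CPM after treatment, a log2 fold change of 0.95 ± 0.17 (adjusted p = 0.00278). Psmc3, an ATPase, had 89.8 and 87.1 CPM before and 171 and 150 CPM after (0.86 ± 0.15, adjusted p = 0.00297). Psmd2, a scaffold of the cap, had 192 and 190 CPM before and 308 and 320 CPM after (0.72 ± 0.14, adjusted p = 0.00432). None of these 3 genes had overlapping groups, but their calls were lost without both libraries richest in reads outside genes (adjusted p = 0.0733, 0.0584 and 0.0924, the highest over the 16 alternatives, whose lowest values were 2.70e-08, 6.13e-07 and 3.66e-11), where their fold changes had the same sign. At the other end stood Psmd4, a ubiquitin receptor (0.06 ± 0.15), and Psmc4, an ATPase (0.07 ± 0.19), whose control and treated libraries overlapped and whose differences lay above 0 in 14 of the 17 settings run. The summed level of the alpha ring was 795 and 847 CPM in DCC control and 1438 and 1256 CPM in DCC IFN-gamma, that of the 3 constitutive catalytic subunits 333 and 305 against 435 and 357 CPM, and that of all 49 genes 4019 and 4168 against 6904 and 6388 CPM.

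Of the 7 assembly chaperones with a Psm symbol 1 was called, and it was lower, where 8.83% of all genes tested were called lower and 12.6% higher. None of the 3 chaperones of the cap, Psmd5, Psmd9 and Psmd10, was called (log2 fold changes from 0.08 to 0.25; 0 at an unadjusted p under 0.05 in edgeR and 0 in DESeq2). Of the 4 chaperones of the core, Psmg1 was called lower and the other 3 were not called. Psmg1, which pairs with Psmg2 on the alpha ring, had 48.1 and 48.7 CPM in DCC control and 29.9 and 24.9 CPM in DCC IFN-gamma (-0.82 ± 0.18, adjusted p = 0.0101 in edgeR). Both treated libraries were below both controls. The call was lost without DCC control 1 (adjusted p = 0.0519, with 2.90e-04 to 0.0956 over the alternatives), and the log2 fold change stayed between -1.02 and -0.65. Without DCC IFN-gamma 1 the lower calls among the 49 were 2, Psmg1 and Psmg2, and without DCC control 1 they were 0. Pomp, the chaperone of the maturing core, is no member by symbol and rose, with 67 and 59.5 CPM untreated and 152 and 151 CPM treated (1.26 ± 0.14, edgeR adjusted p = 2.21e-04).

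The tissue-restricted forms had few counts. Psmb11, the thymic β5t, had 138 and 63 counts in DCC control (8.40 and 2.50 CPM), 39 and 18 after treatment, 57 and 153 in early lesion and, in TUBO, 63 and 22. Its 2 highest levels were in the libraries richest in reads outside genes, early lesion 2 with 6.82 CPM and DCC control 1, and the part of those reads in these levels was not tested. It was not called after interferon-gamma (-2.31 ± 0.92, adjusted p = 0.104). Psma8, the testis form of the α4 subunit, had 84 and 186 counts in DCC control (5.11 and 7.37 CPM) and 166 and 69 in DCC IFN-gamma (6.08 and 2.88 CPM). It had 0 and 13 counts in early lesion and none in either TUBO library. The 2 DCC groups overlapped (-0.48 ± 1.15, adjusted p = 0.788). Against a floor of 3 counts per library in TUBO (0.109 CPM on average), the group mean of Psma8 was at least 57.3-fold higher in DCC control. The mean of DCC IFN-gamma was at least 41.1-fold higher. DCC control 1 (5.11 CPM) and DCC IFN-gamma 2 (2.88 CPM) lay below their group means, so these bounds do not hold for each library.

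Other genes of the pathway were taken from 3 lists. Of all genes tested in edgeR after interferon-gamma, 12.6% were called higher and 8.83% lower. Of 21 proteasome partners and regulators in the table, 6 were called higher, 1 lower and 14 not (median log2 fold change 0.20). DESeq2 called 7 of them higher and 5 lower. Beside Pomp, Zfand2a, an arsenite-inducible proteasome partner, rose from 47 and 35 to 86 and 73.1 CPM (0.96 ± 0.18, adjusted p = 0.00448 in edgeR). The lower call was Shfm1, a small subunit of the cap, with 284 and 294 CPM before and 152 and 204 CPM after treatment (-0.70 ± 0.17, adjusted p = 0.0176). It was lost without DCC control 1 (0.0717), DCC control 2 (0.07) or DCC IFN-gamma 1 (0.0543), within 6.13e-04 to 0.116. Nfe2l1, the transcription factor that drives subunit genes when proteasome activity falls, had 499 and 500 CPM in DCC control and 265 and 403 CPM in DCC IFN-gamma. It was not called (-0.58 ± 0.20, adjusted p = 0.0608), but was without DCC IFN-gamma 2 (-0.87, adjusted p = 0.00139) and with upper quartile factors (adjusted p = 0.0121), within a range up to 0.258. Of 8 peptidases that trim proteasome products, 3 were called higher and 5 not. Erap1, the trimming enzyme of the endoplasmic reticulum, rose from 12.1 and 14.5 to 128 and 157 CPM (3.42 ± 0.21, edgeR adjusted p = 4.03e-06). The cytosolic Lap3 had 62.3 and 71.6 CPM before and 137 and 124 CPM after treatment (0.96 ± 0.16, edgeR adjusted p = 0.00188), a call lost without both libraries richest in reads outside genes (adjusted p = 0.0554, the highest of its alternatives, from 3.63e-08). Tpp2, another cytosolic trimming enzyme, was called at 0.47 ± 0.15 (adjusted p = 0.0475) and kept that call in few alternatives (0.00763 to 0.295), among those that lost it each library left out except DCC IFN-gamma 2.

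Listed interferon regulators and neighbours of Psmb8 and Psmb9 rose as well. Irf1, a transcription factor known to act on immunosubunit promoters, changed by 6.09 ± 0.25 on the log2 scale (edgeR adjusted p = 7.66e-07). Nlrc5, the MHC class I transactivator, had 20.6 and 25.3 CPM before and 128 and 127 CPM after treatment (2.47 ± 0.23, edgeR adjusted p = 6.96e-05). The peptide transporter genes Tap1 and Tap2, in the same stretch of chromosome 17 as Psmb8 and Psmb9, changed by 4.58 ± 0.17 (adjusted p = 4.91e-07) and 3.19 ± 0.22 (adjusted p = 9.25e-06). These 4 calls, of Irf1, Nlrc5, Tap1 and Tap2, held under all alternatives run.

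The untreated groups were compared next, since the design sets disseminated cells beside tumour cells. Among the immunosubunits, Psmb8 was set apart in TUBO, at 31.5-fold the early lesion level and 21.7-fold the DCC control level, while Psmb9 and Psmb10 were within a few-fold of both. Against early lesion, TUBO had a log2 difference of 4.98 ± 0.30 in Psmb8 (adjusted p = 3.41e-06 in edgeR), 1.75 ± 0.44 in Psmb9 (adjusted p = 0.0211) and 0.94 ± 0.21 in Psmb10 (adjusted p = 0.00799). The Psmb8 call held under all alternatives run. That of Psmb9 was lost without any 1 of the 4 libraries (adjusted p = 0.111 and 0.0639 without early lesion 1 and early lesion 2, 0.059 and 0.134 without TUBO 1 and TUBO 2, within 2.36e-07 to 0.134). That of Psmb10 was lost without early lesion 2 (adjusted p = 0.0658, within 2.70e-04 to 0.0658). Between DCC control and TUBO, Psmb8 was lower in DCC (-4.44 ± 0.29, adjusted p = 1.05e-06) and the Psmb9 libraries overlapped (-0.03 ± 0.40, adjusted p = 0.955). Psmb10 was lower in DCC too (-0.63 ± 0.21, adjusted p = 0.0319), a call lost without DCC control 1 (0.236), TUBO 1 (0.0949) or TUBO 2 (0.13), within 0.0073 to 0.302. In the main fit no difference between DCC control and early lesion was called in Psmb8 (0.54 ± 0.31, adjusted p = 0.217) or Psmb10 (0.31 ± 0.21, adjusted p = 0.301). This does not show equal levels.

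The level of Psmb8 in TUBO came close to that in interferon-treated DCC, which the other immunosubunits did not. Treated DCC exceeded TUBO by 0.82 ± 0.24 in Psmb8 (adjusted p = 0.0174), by 4.89 ± 0.42 in Psmb9 (adjusted p = 2.30e-05) and by 3.35 ± 0.21 in Psmb10 (adjusted p = 8.20e-07) on the log2 scale in edgeR. The Psmb8 difference was not called without TUBO 1 (adjusted p = 0.0752, within 0.00117 to 0.0752). The log2 ratio of Psmb8 to Psmb5 was -2.27 ± 0.06 (SD, n = 2) in TUBO and -6.71 ± 0.60 in early lesion, 21.6-fold apart (exact permutation p = 0.333, the smallest possible). That of Psmb9 to Psmb6 was -6.81 ± 0.21 and -8.07 ± 0.42, and that of Psmb10 to Psmb7 -2.32 ± 0.07 and -3.65 ± 0.09. Of the genes that rose with interferon-gamma in DCC, some were low in TUBO and others were not. Irf1 had 25.3 and 20.9 CPM there, Nlrc5 0.448 and 0.305 CPM and Tap1 11.6 and 13.2 CPM. In treated DCC these 3 genes had at least 865, 127 and 275 CPM. Erap1 had 76.7 and 57.8 CPM in TUBO, against 12.1 and 14.5 CPM in DCC control. Pomp had 124 and 138 CPM in TUBO, against 67 and 59.5 CPM. Irf1 in TUBO was above DCC control too (10.8 and 16.6 CPM). The part of interferon signals in the TUBO level of Psmb8 was not tested. Exons of Psmb8 overlap those of Gm20496 on the other strand, a gene with no line in the table, so reads of it could have been counted under Psmb8. Ptprc had 0.0345 and 0 CPM in TUBO. Of 16 macrophage markers 6 were at 0 in TUBO 1 and 11 in TUBO 2, and of 7 leukocyte markers 5 and 6. Other markers of these lists were high: Lcp1 had 384 and 298 CPM in TUBO, against 112 and 105 CPM in treated DCC. Cd14 had 73.9 and 107 CPM in TUBO, against 43.1 and 65.7 CPM. The part of other cells in the TUBO levels was not tested.

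**Figure D4:**
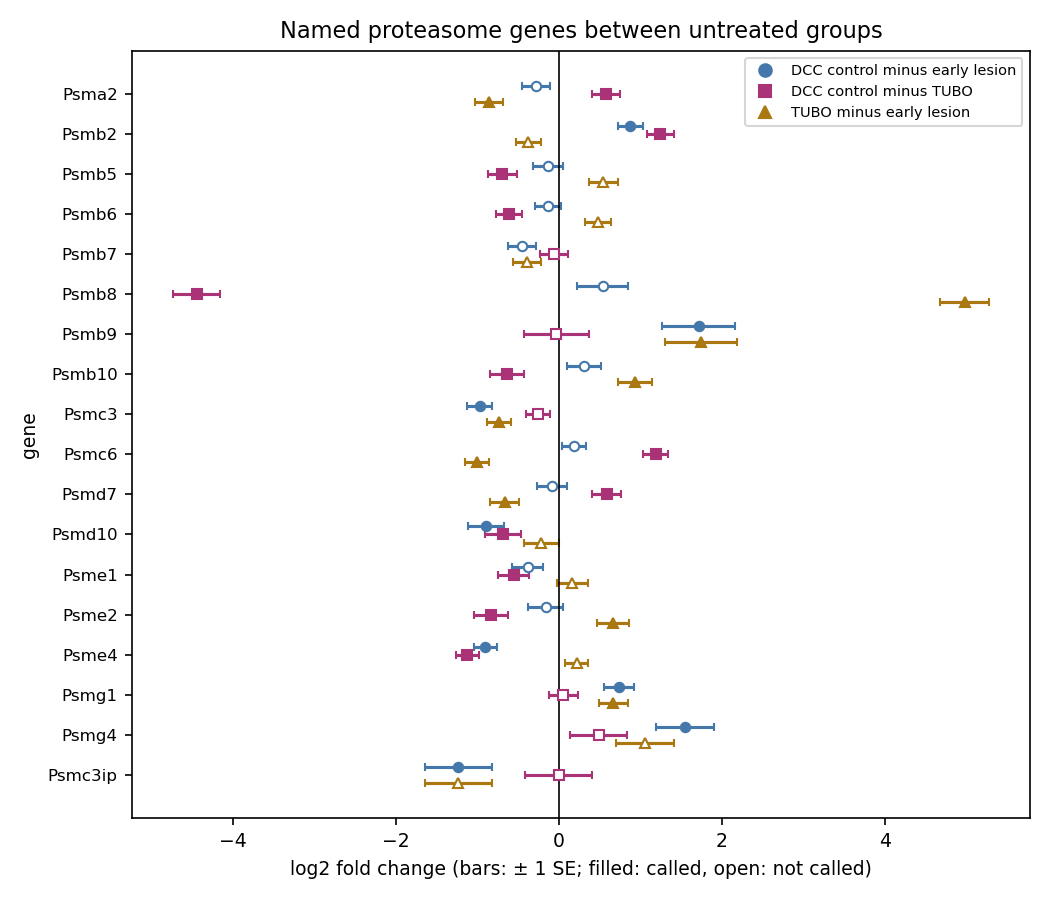
Log2 fold changes between untreated groups (x axis, edgeR estimate ± 1 SE, filled where called) for the named proteasome genes (y axis); Psma8, with no count in TUBO, is left out. Psmb8 stands apart at 4.98 (TUBO minus early lesion) and -4.44 (DCC control minus TUBO), and the other genes lie between -1.23 and 1.75.

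Between DCC control and early lesion, 6 of the 49 genes were called higher in DCC (12.2%, against 19.1% of all genes), 7 lower (14.3%, against 18.7%) and 36 not, with a median of -0.12 beside 0.23 over all genes. Both shares were below those of all genes, of which 37.7% were called in either direction. The DCC libraries differ from the tumour cells in their epithelial and stromal markers, given above, and the part of those in these differences was not tested. Psmb2, a beta subunit without a proteolytic site, had 71.9 and 79.4 CPM in DCC control and 43.5 and 38.5 CPM in early lesion (0.88 ± 0.15, adjusted p = 0.00106 in edgeR). Psmc3 had 89.8 and 87.1 CPM in DCC control against 180 and 167 CPM (-0.97 ± 0.15, adjusted p = 5.57e-04), and Psme4 57.9 and 66.5 CPM against 120 and 112 CPM (-0.90 ± 0.14, adjusted p = 6.11e-04). These 3 calls held under all alternatives run. Psmb9 was higher in DCC control (1.72 ± 0.45, adjusted p = 0.0154), a call lost without DCC control 2 (adjusted p = 0.144) and without early lesion 1 (0.1), within 3.40e-07 to 0.221. The chaperones of the core were higher in DCC: 3 of 4 were called, among them Psmg4, a partner of Psmg3, with 19.5 and 17.6 CPM against 7.91 and 4.73 CPM (1.55 ± 0.36, adjusted p = 0.00612). None of the 4 was called without early lesion 2 (Psmg4 adjusted p = 0.0547, within 7.00e-06 to 0.146), and 2 were without DCC control 1 or DCC control 2 or without early lesion 1. Psmd10 (gankyrin), a chaperone of the cap, had 11.1 and 12.3 CPM against 22.8 and 20.8 CPM (-0.89 ± 0.22, adjusted p = 0.00774), and was not called without DCC control 1 (0.0523) or early lesion 1 (0.0826), within 4.84e-04 to 0.133. Psmc3ip had 4.08 and 7.21 CPM against 12.3 and 14.3 CPM (-1.23 ± 0.41, adjusted p = 0.036), lost without DCC control 1 (0.214), early lesion 1 (0.0911) or early lesion 2 (0.146), within 0.0109 to 0.408. Psma8 was called higher (adjusted p = 0.0329), lost without DCC control 1 (0.0842) or DCC control 2 (0.115), within 3.18e-05 to 0.115. The counts of 6 and 7 were 3 higher without DCC control 2 or early lesion 2, and 3 lower without DCC control 1 or early lesion 1, 11 lower without DCC IFN-gamma 2.

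Between DCC control and TUBO, 6 genes were called higher in DCC (12.2%, against 22.1% of all genes), 10 lower (20.4%, against 19.9%) and 33 not, where 42% of all genes were called in either direction. The median was -0.04, beside 0.37 over all genes, and the share of calls on the higher side went from 37.5% to 53.3% with upper quartile factors. Psmb2 (1.25 ± 0.16, adjusted p = 1.02e-04 in edgeR; 30.2 and 33.5 CPM in TUBO) and Psmc6, an ATPase of the cap (1.19 ± 0.15, adjusted p = 1.39e-04; 136 and 166 CPM in DCC control, 67.5 and 64.6 CPM in TUBO), were higher in DCC. Psme4 was lower (-1.12 ± 0.14, adjusted p = 1.31e-04), with 138 and 132 CPM in TUBO. These 3 calls held under all alternatives run, and no library of one group reached the other. Psmd7, a lid subunit of the cap, had 132 and 121 CPM in DCC control and 84.7 and 84.1 CPM in TUBO (0.59 ± 0.18, adjusted p = 0.0241). That call was lost without DCC control 1 (0.124), TUBO 1 (0.0807) or TUBO 2 (0.107), within 0.0022 to 0.167. Of the constitutive catalytic subunits, Psmb5 was lower in DCC, with 63.1 and 70.6 CPM in TUBO (-0.69 ± 0.18, adjusted p = 0.0116), and so was Psmb6, with 191 and 199 CPM in TUBO (-0.61 ± 0.16, adjusted p = 0.0118). Psmb7 was not called (-0.06 ± 0.17). The Psmb5 call was lost without DCC control 1 (adjusted p = 0.0897) or TUBO 2 (0.0761), within 0.00124 to 0.144. The Psmb6 call was lost without DCC control 2 (0.124), TUBO 1 (0.0755) or TUBO 2 (0.0637), within 0.00221 to 0.124. Psme2 was lower in DCC (-0.83 ± 0.21, adjusted p = 0.00814), lost without DCC control 1 (0.076) or TUBO 2 (0.0848), within 2.91e-04 to 0.122. The count of higher calls was 3 without TUBO 1 and 10 without DCC IFN-gamma 1, and that of lower calls was 4 without DCC control 1, 6 without TUBO 1 and 2 without TUBO 2.

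Between TUBO and early lesion, 6 genes were called higher in TUBO (12.2%, against 11.4% of all genes), 7 lower (14.3%, against 12.7%) and 36 not, shares close to those of all genes (24.1% called in either direction), with a median of -0.07 beside -0.27. All 3 immunosubunits were among the higher calls. Psmc6 was lower in TUBO, with 67.5 and 64.6 CPM against 142 and 123 CPM in early lesion (log2 difference -1.0 ± 0.15, edgeR adjusted p = 0.00112), and so was Psma2, with 139 and 159 CPM in TUBO and 291 and 247 CPM in early lesion (-0.85 ± 0.17, adjusted p = 0.00418). Psmc3 had 95.4 and 115 CPM in TUBO (-0.73 ± 0.15, adjusted p = 0.00633). The calls of Psmc6 and Psma2 held under all alternatives run, and that of Psmc3 was lost without both libraries richest in reads outside genes (adjusted p = 0.0631, within 6.10e-06 to 0.0631). Psmd7 had 142 and 126 CPM in early lesion (-0.66 ± 0.18, adjusted p = 0.0224), and Psmg1 had 43.6 and 49.1 CPM in TUBO against 32 and 26 CPM (0.67 ± 0.18, adjusted p = 0.0222). The call of Psmd7 was lost without early lesion 1 (0.121), early lesion 2 (0.0574), TUBO 1 (0.0675) or TUBO 2 (0.116), within 7.36e-04 to 0.121. That of Psmg1 was lost without early lesion 2 (0.202), TUBO 1 (0.0936) or TUBO 2 (0.137), within 0.00451 to 0.281. The count of higher calls was 11 and 10 without DCC IFN-gamma 1 and DCC IFN-gamma 2, 1 without early lesion 2 and 2 without TUBO 2. That of lower calls was 11 and 14 without DCC IFN-gamma 1 and DCC IFN-gamma 2, 4 without early lesion 1, early lesion 2 or TUBO 1, and 3 without TUBO 2. The 3 comparisons of untreated groups share libraries, so a gene set apart in 1 group appears in 2 of them. Over all genes, 19.1% were called higher and 18.7% lower in DCC control against early lesion, and 22.1% and 19.9% against TUBO. In TUBO against early lesion the shares were 11.4% and 12.7%. Of the 21 partners and regulators, 8 were higher and 2 lower in DCC control against early lesion, and 6 and 3 against TUBO. In TUBO against early lesion 8 were higher and 2 lower. Of the 8 peptidases the same counts were 2 and 3, 2 and 3, and 0 and 0 (2 lower at an unadjusted p under 0.05 in edgeR and 2 lower in DESeq2 for the last).

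**Figure D5:**
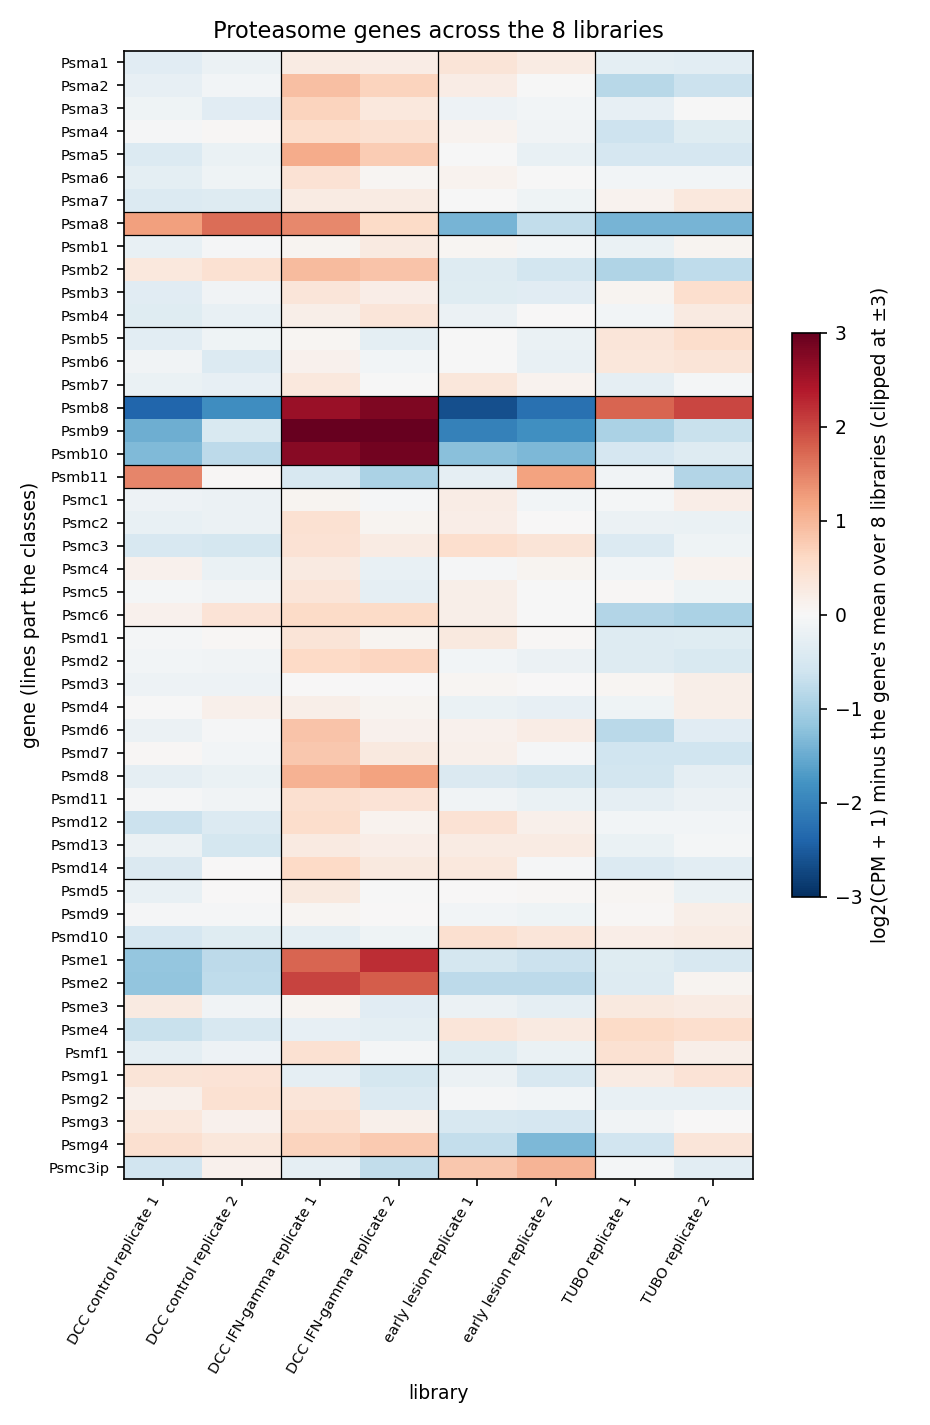
Log2(CPM + 1) of the 49 genes in the 8 libraries, shown as the difference from each gene's mean over all libraries (colour, clipped at 3 either way), with lines between classes and groups. The immunosubunits and PA28 genes are highest in both treated DCC libraries, Psmb8 is also high in both TUBO libraries, and most other genes differ little.

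Subunits that stand in equal number in the particle did not have equal RNA levels. Per kilobase of exon, the 7 alpha ring subunits spanned 3.04-fold to 4.07-fold within a library, with Psma3 the lowest in all 8. With the principal transcript the span was 4.09-fold to 5.95-fold. Among the catalytic subunits in DCC control, Psmb6 was highest (75.6 and 60.9 CPM per kilobase), Psmb5 (43.1 and 49.3) and Psmb7 (44.8 and 42.9) overlapped, Psmb10 followed (4.68 and 7.06), and Psmb9 (0.499 and 1.28) and Psmb8 (0.522 and 0.867) overlapped at the low end. In DCC IFN-gamma, Psmb10 (88.2 and 98.4) and Psmb6 (88.8 and 76.8) overlapped at the top, Psmb7 (63.7 and 50.9) and Psmb5 (57.0 and 43.8) overlapped below them, and Psmb9 (22.9 and 32.7) and Psmb8 (25.2 and 29.1) overlapped at the bottom. With the principal transcript Psmb6 and Psmb7 led in treated DCC and Psmb10 came after them.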

How the data were processed

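Gene expression was measured by RNA sequencing of 8 mouse libraries (RNeasy Mini and Nugen Ovation Mouse RNAseq kits, per the labels' protocols). The deposited values are raw counts, 1 column per library and 1 line per gene symbol. Per the submitters' processing notes, TopHat, HTSeq 0.6.1 and the build mm10 were used. Annotation, strand setting and filters are not given in the sources used here. Neither library sizes nor tests include the 5 closing lines, which name no gene and held 35.2% to 63.7% of the counts of a library.

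From these counts, CPM were computed on TMM library sizes. The test was edgeR 4.0.16's quasi-likelihood test (R 4.3.3, robust) in 1 model of 4 group means over 8 libraries, on the 17069 genes that passed filterByExpr (minimum count 10). Residual degrees of freedom were 4 and the common biological coefficient of variation 0.4158. A call is an adjusted p under 0.05 (Benjamini-Hochberg, over all genes), and SE is the log2 fold change over the square root of F. On data simulated for DCC IFN-gamma against DCC control (15715 genes), 38% of 2-fold and 56% of 4-fold changes and 5 unchanged genes were called. The changed genes were drawn at random from all genes that passed the filter, and those that failed it once simulated were scored as not called. These shares are therefore not specific to the proteasome genes. Reads are not independent molecules, so floors cover counting error only.

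Lengths and loci come from GENCODE M21, in which 49 of 49 genes were found; exons of 14 overlap those of other genes. The genes named are Psmb5 to Psmb10, Psme1, Psme2, up to 4 called members with the largest change per comparison and direction, and up to 3 examples per class or list, picked with their values known. Members and lists were chosen with earlier results of these data known. Results of 1 listed gene are not reported here. Other settings were tried one at a time: DESeq2 1.42.0, RLE or upper quartile factors, no filter or a stricter one (50 counts in 2 libraries), a replicate block, models of the 2 groups alone, each library omitted in turn, DCC control 1 and early lesion 2 (richest in reads outside genes) omitted together, and other gene lengths. A fit that leaves out 1 library of a group assumes that the other varies like the other groups.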

Additional observations from a re-analysis of the deposited data

How the results depend on the processing

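Counts of the 49 genes called moved most with the libraries used. After interferon-gamma (20 higher, 1 lower) upper quartile factors gave 12 higher, a fit of only the 2 groups 13 higher and 2 lower, no filter 2 lower, and omitting both libraries richest in reads outside genes (DCC control 1, early lesion 2) 7 higher and 0 lower; 1 library left out gave 12 to 27 higher and 0 to 2 lower. For DCC control against early lesion (6 and 7) the fit of 2 groups gave 13 lower, omitting those 2 libraries 2 lower, and 1 library left out 3 to 6 higher and 3 to 11 lower. For DCC control against TUBO (6 and 10) omitting those 2 libraries gave 3 higher and 3 lower, and 1 library left out 3 to 10 and 2 to 13. For TUBO against early lesion (6 and 7) DESeq2 gave 14 lower, the fit of 2 groups 10 higher and 15 lower, omitting those 2 libraries 2 and 2, and 1 library left out 1 to 11 and 3 to 14. The cause was not tested. With 1 library left out, the difference of log2 ratios after treatment was 3.98 to 5.65 for Psmb9 to Psmb6, 3.31 to 3.97 for Psmb10 to Psmb7 and 4.92 to 5.51 for Psmb8 to Psmb5, and the immunosubunit share was 3.37% to 5.67% in DCC control, 39.4% to 48.3% in DCC IFN-gamma, 2.71% to 3.11% in early lesion and 9.95% to 10.5% in TUBO. The share in early lesion (2.91%) was 1.95% with the principal transcript; that in TUBO (10.2%) was 10.9% with the longest transcript, 14.5% with no length correction and 9.28% with the principal transcript. Of the values of single genes under an alternative, 1702 kept their side of the threshold, 264 lost a call, 49 gained one and none changed sign with a call. Replicate deviations correlated between groups at -0.432 (DCC control with early lesion) to 0.0957 (early lesion with TUBO). Whether the replicate numbers pair the samples cannot be told from such correlations. With the replicate block 19 genes were higher and 1 lower after interferon-gamma, and Psmd14 lost its call; among the untreated groups Psma8 (DCC control against early lesion) and Psma4 (TUBO against early lesion) lost theirs and Psmb6 gained one. With no filter adjusted p-values may be far too small.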
